A study of Mus musculus with 160 samples.

Results

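The mouse has 39 protein-coding Hox genes, and they were followed here in sorted cells of the embryonic aorta-gonad-mesonephros (AGM) region. They were taken by symbol, Hoxa, Hoxb, Hoxc or Hoxd followed by a number, which gave 39 of the 46078 genes in the count table, and no expression value entered this choice. Hox genes encode homeodomain transcription factors that give cells along the body axis their position. They lie in 4 clusters, and genes of the same number in different clusters are paralogs, numbered 1 to 13. Within a cluster, low numbers are switched on first and reach the furthest forward, and high numbers come on later and stay nearer the tail. Several of them, Hoxa9, Hoxa10 and Hoxb4 among them, are also known for their part in blood stem and progenitor cells.

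The cells came from embryos that carry 1 Gata3-GFP allele, in which GFP reports the transcription factor gene Gata3, and every population shared this Gata3-GFP +/- genotype. At E10.5, endothelial cells (ECs) were sorted by Cdh5 without CD41 and CD45, and haematopoietic cells (HCs) by CD41 and CD45. At E11.5, mesenchymal cells (MCs) were sorted by Pdgfrb, and cells of the sympathetic nervous system (SNS) by Ngfr. Each was divided into a Gata3-GFP+ and a Gata3-GFP- population, and 20 pools of 20 cells per population were made into Smart-seq2 libraries. For ECs and HCs, cells of several embryos were combined in each biological replicate, so a pool is not an embryo. The study's methods give 3 to 5 biological replicates as the source of the EC and HC cells, and the labels do not tie pools to them. The pools were the replicates of every test, so n counts pools, of which several share a biological replicate. P-values measure the spread between pools, which may be technical, and are too small as a measure of the spread between embryos. No Gata3-null or wild-type embryo is among the samples. All cells carry the reporter allele, so GFP+ and GFP- mark cells of the same genotype with and without its expression. The paper lists the reporter as a knock-in, and its effect on Gata3 dose was not tested.

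Of 160 pools, 153 passed the limits on depth and quality, which left 19 GFP+ and 20 GFP- EC pools, 20 and 20 HC pools, 20 and 17 MC pools, and 18 and 19 SNS pools. Counts on genes ranged from 1400824 to 16004756 per passing pool. Levels are given as CPM, counts per 1000000 of the TMM-scaled library, in the order lowest, median and highest pool. Gata3 followed the sort at E10.5, with medians of 78.0 CPM in GFP+ against 10.47 in GFP- ECs and 45.1 against 7.03 in HCs. ECs carried the endothelial markers (summed CPM of 8 genes 3675 to 7856 per pool) and HCs the haematopoietic markers (1961 to 5636). GFP- HCs were also rich in macrophage markers (3678, 5658 and 7809), as were most GFP+ HC pools (67.9, 4486 and 10801).

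At E11.5, 12 pools went against their label, the last 3 columns of the count table in each of the 4 populations. In the 6 such libraries labelled MC, the summed CPM of 10 sympathetic markers exceeded that of 8 mesenchymal markers. They held 936 to 4421 of the sympathetic and 94.0 to 738 of the mesenchymal sum, while the other MC pools held 14.5 to 143 and 2692 to 5596. The 6 such libraries labelled SNS held 26.5 to 113 and 2822 to 5406, against 797 to 3684 and 112 to 902 in the other SNS pools. Their Gata3 levels also ran against the GFP label, with 123 to 395 CPM in the 3 labelled GFP- MC against 16.3 to 82.3 in the 3 labelled GFP+ MC, and 44.4 to 50.2 in those labelled GFP- SNS against 9.97 to 24.3 in those labelled GFP+ SNS. Whether labels were exchanged was not tested, and no pool was moved to another group. The E11.5 values over all passing pools therefore mix libraries whose markers and reporter gene disagree with their label. The numbers of Hox genes called at E11.5 are given over all passing pools and again without these 12, and values of single genes over the set named beside them. Leaving out the 12 was chosen after seeing the data and leaves 17 GFP+ and 14 GFP- MC pools and 15 GFP+ and 16 GFP- SNS pools. Without them, median Gata3 was 36.0 CPM in GFP+ against 8.97 in GFP- MCs and 188 against 39.3 in SNS cells.

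**Figure D1:**
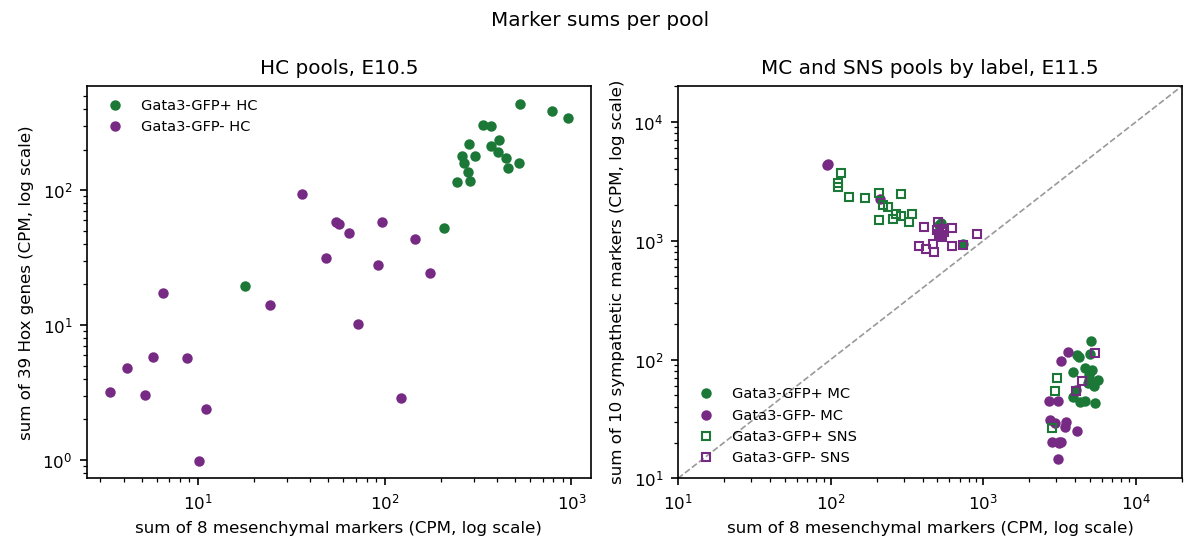
Marker sums per pool (CPM, log scales, 1 point per pool). Left, HC pools, with the 39 Hox genes summed on the y axis: 18 of 20 GFP+ pools lie above all GFP- pools. Right, MC (filled circles) and SNS (open squares) pools by label: 12 pools lie on the other side of the dashed line of equal sums from the rest of their label.

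The clusters are compact, and in each of them all members are read in the same direction. On GRCm38, the 11 Hoxa genes lie on chromosome 6 from 52155590 to 52260880 on the minus strand. The 10 Hoxb genes lie on chromosome 11 from 96194316 to 96368256, the 9 Hoxc genes on chromosome 15 from 102921103 to 103036852 and the 9 Hoxd genes on chromosome 2 from 74668310 to 74765142, all on the plus strand. Exons of neighbours overlap in places. Hoxc5 and Hoxc10 share 166 exon bases in the annotation, 53.1% of the exon bases of Hoxd3 also belong to a read-through gene model, and 52.9% of those of Hoxb3 lie opposite Hoxb3os. The strand setting of the counting is not stated, so reads of such pairs cannot be told apart. Reads that several genes could claim were left out, so counts of such genes may be too low.

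Promoter sequences are shown for 3 neighbouring Hoxa genes that were higher in GFP+ ECs, and for Hoxb1, which differed between the SNS populations. Each is the 250 bases before the RefSeq transcription start (GRCm38.p6), read 5′ to 3′ on the gene's strand. In the Hoxa windows, capitals mark the letters GATA on either strand (TATC when read on the gene's strand), the core that GATA factors recognise. In the Hoxb1 window, capitals mark TGATNNAT on either strand, letters that Hox proteins bind together with Pbx proteins.
Hoxa7, chr6:52218574-52218823, minus strand: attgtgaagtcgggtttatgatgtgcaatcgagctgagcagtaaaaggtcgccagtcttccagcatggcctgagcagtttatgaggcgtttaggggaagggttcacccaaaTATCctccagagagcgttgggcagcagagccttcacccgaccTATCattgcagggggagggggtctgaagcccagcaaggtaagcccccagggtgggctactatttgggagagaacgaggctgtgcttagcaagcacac
Hoxa9, chr6:52227371-52227620, minus strand: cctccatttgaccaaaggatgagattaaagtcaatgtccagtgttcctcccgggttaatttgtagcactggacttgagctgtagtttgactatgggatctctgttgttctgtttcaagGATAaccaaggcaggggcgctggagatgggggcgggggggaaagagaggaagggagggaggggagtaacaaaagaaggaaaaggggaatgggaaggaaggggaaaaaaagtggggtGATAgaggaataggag
Hoxa10, chr6:52234940-52235189, minus strand, the nearer of its 2 starts to Hoxa9: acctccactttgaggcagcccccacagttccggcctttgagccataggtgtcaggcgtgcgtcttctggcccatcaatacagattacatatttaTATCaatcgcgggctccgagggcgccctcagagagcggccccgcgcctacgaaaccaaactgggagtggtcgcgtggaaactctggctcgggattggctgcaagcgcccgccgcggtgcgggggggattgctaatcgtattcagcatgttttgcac
Hoxb1, chr11:96365508-96365757, plus strand: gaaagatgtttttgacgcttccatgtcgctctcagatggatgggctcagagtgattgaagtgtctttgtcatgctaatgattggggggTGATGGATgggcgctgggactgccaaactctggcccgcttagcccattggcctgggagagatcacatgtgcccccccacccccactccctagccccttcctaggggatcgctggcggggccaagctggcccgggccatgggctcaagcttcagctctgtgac

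Hoxa7 and Hoxa9 held 2 GATA matches each, and Hoxa10 held 1. These letters are common: they occur in 53.6% of all 32851 windows of this length and in 13 of the 24 windows (54.2%) that cover 22 of the Hox genes. TGATNNAT occurs in 7.68% of all windows and in 4 of the 24 (16.7%). It stood once in the Hoxb1 window, starting 162 bases before the transcription start. A match is a description of the sequence and not of binding.

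The populations used different parts of the clusters. Detection was taken as 10 or more counts in 50% or more of the pools of a population. In ECs, 14 (GFP+) and 13 (GFP-) of the 39 genes were detected, and nearly all of them were Hoxa and Hoxb genes. Among the Hoxc and Hoxd genes, Hoxd8 was detected in both EC populations and Hoxc9 in GFP+ ECs. GFP+ HCs had 15 detected genes, 5 of Hoxa, 4 of Hoxb and 6 of Hoxc, and none of Hoxd. GFP- HCs had 0. MCs had 23 in each population, and SNS cells had 22 in GFP+ and 28 in GFP- cells (29 without the 12 pools, with Hoxb1 added).

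Over all passing pools, 29 of the 39 genes were detected in at least 1 population and 10 in none. The 10 were Hoxa6, Hoxa13, Hoxb1, Hoxb3, Hoxb13, Hoxc11, Hoxc12, Hoxc13, Hoxd1 and Hoxd13. Every paralog of number 13, the most posterior group, is among them, and Hoxb13 had 0 counts in all 153 pools. Over all pools, Hoxc12 had 4 counts, Hoxc13 had 23, Hoxa13 had 106 and Hoxd13 had 149. Among the others, Hoxa6 (658 counts), Hoxb3 (415), Hoxc11 (363) and Hoxd1 (201) had at least 10 counts in at most 25 pools. Of the exon bases of Hoxb3, 52.9% lie opposite Hoxb3os, and reads that both genes could claim were left out. How far this lowered the count of Hoxb3 was not tested. Hoxa5, Hoxa7, Hoxa9, Hoxa10, Hoxb5, Hoxb6, Hoxb7 and Hoxb9 were detected in 7 of the 8 populations, all but GFP- HCs.

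**Figure D2:**
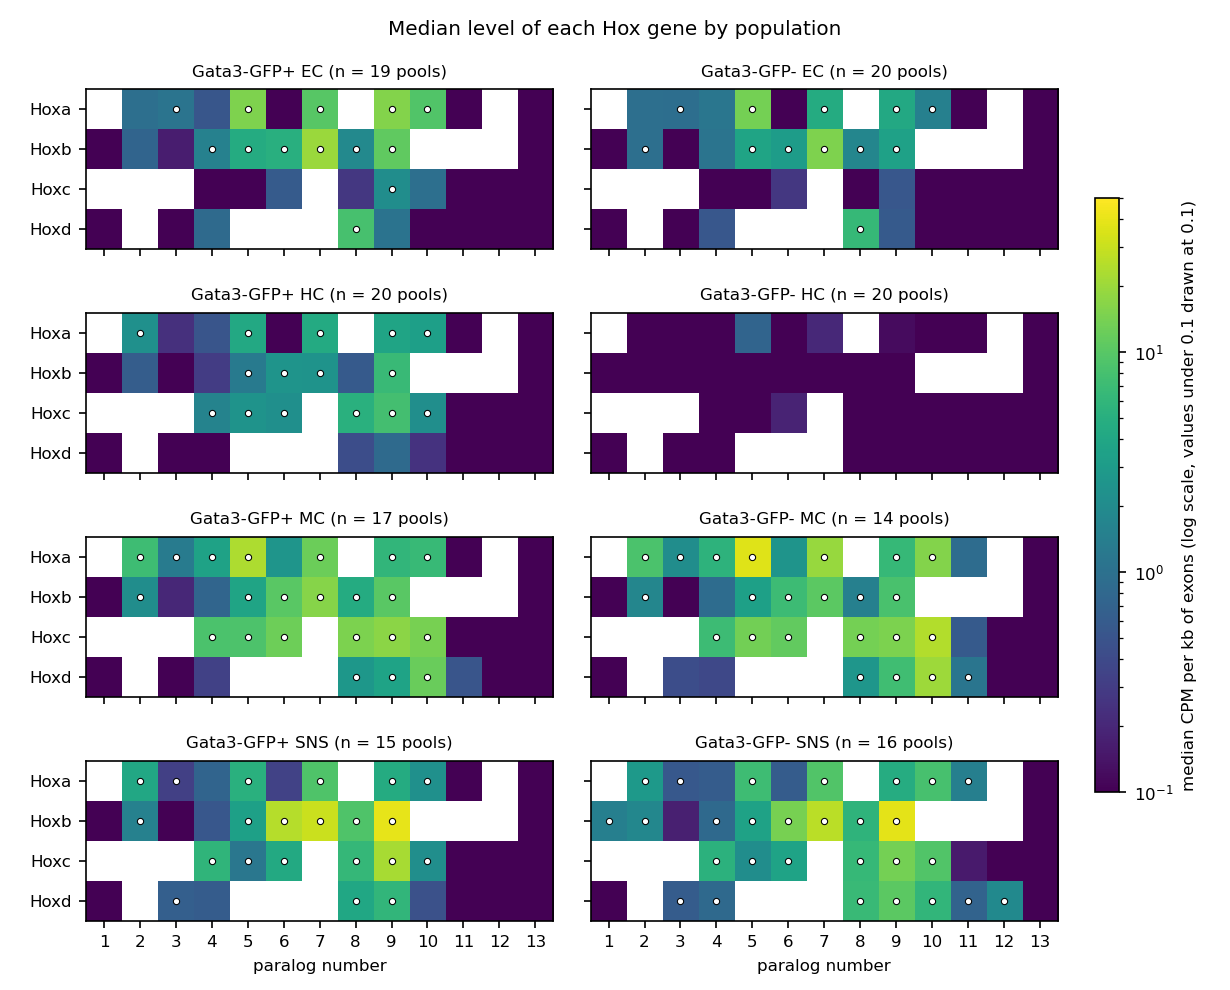
Median level of 38 of the 39 Hox genes in each population, as CPM per kb of exons (log colour scale), with clusters in rows and paralog number in columns. White circles mark detected genes, and E11.5 panels leave out the 12 pools that went against their label. GFP- HCs show no detected gene, GFP- SNS cells reach Hoxa11 and Hoxd12, and ECs lack most Hoxc genes.

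Levels of different genes were compared per kb of exons. In GFP+ ECs the median was highest for Hoxb7 (19.6 CPM per kb), followed by Hoxa9 (15.7) and Hoxa5 (15.1). Hoxb7 (14.9) and Hoxa5 (13.7) also led in GFP- ECs. In GFP+ HCs the first places were taken by Hoxc9 (7.76), Hoxb9 (6.76) and Hoxc8 (5.17). These medians lie close together beside the spread of the pools, so their order within a population is not firm. Per kb of the longest transcript, Hoxa9 (27.2) came before Hoxb7 (23.5) in GFP+ ECs. Without the 12 pools, Hoxa5 led in MCs (23.2 in GFP+ and 36.7 in GFP- cells), with Hoxc9 next in GFP+ and Hoxc10 next in GFP- MCs, or Hoxb7 and Hoxa7 per kb of the longest transcript. In SNS cells Hoxb9 led (40.1 and 39), followed by Hoxb7 (30.6 and 26.5).

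The first comparison asked which Hox genes differ between GFP+ and GFP- ECs. In GFP+ ECs, 5 of the 22 Hox genes that could be tested were higher and 0 were lower, against 19.5% and 16.5% of all 15073 genes tested. The share of Hox genes was thus near that of all genes. The 5 were Hoxa7, Hoxa9, Hoxa10, Hoxb9 and Hoxc10, from the middle and posterior part of the clusters, and the lower-numbered genes tested were not called. Testing required 10 counts or more in 5 or more of the pools, which 17 Hox genes did not reach. Calls required both a fold change beyond 0.1 on the log2 scale and an adjusted p below 0.01 in edgeR's quasi-likelihood test (Benjamini-Hochberg over all tested genes). The median log2 fold change was 0.47 over the 22 and 0.10 over all genes. The filter bears on this median and on the split of calls. Of the 22, 21 pass it in GFP+ pools taken alone and 16 in GFP- pools taken alone.

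Hoxa9, a gene of blood progenitors, had 37.6, 87.7 and 118 CPM in GFP+ ECs and 8.42, 23.7 and 41.2 CPM in GFP- ECs. All but 1 of the GFP+ pools (18 of 19) lay above the highest GFP- pool. Its log2 fold change was 1.71 ± 0.16 (SE; edgeR adjusted p = 5.33e-12). Hoxa10, its neighbour and another gene of blood progenitors, had 3.24, 30.6 and 62.3 CPM against 0, 4.91 and 13.1. Here 16 of 19 GFP+ pools lay above the GFP- range. The log2 fold change was 2.36 ± 0.37 (edgeR adjusted p = 1.03e-06).

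Hoxa7, the gene on the other side of Hoxa9, had 10.6, 28.7 and 57.4 CPM in GFP+ and 3.32, 13.3 and 28.6 CPM in GFP- ECs, with 11 of 19 GFP+ pools above the GFP- range. Its log2 fold change was 1.02 ± 0.25 (edgeR adjusted p = 0.000687). Hoxb9 had 11.1, 27.9 and 79.1 CPM against 0.985, 8.94 and 23.7, a log2 fold change of 1.73 ± 0.28 (edgeR adjusted p = 1.55e-06). For Hoxb9, 13 of 19 GFP+ pools were above the GFP- range. Hoxc10 was near its limit of detection, with 0, 1.86 and 17.2 CPM against 0, 0 and 4.24. Its log2 fold change was 2.40 ± 0.76 (edgeR adjusted p = 0.00806), and without a filter on low counts it was no longer called. The other tested genes of number 9 were Hoxc9 (log2 fold change 1.27 ± 0.57, edgeR adjusted p = 0.0634) and Hoxd9 (0.19 ± 0.62, edgeR adjusted p = 0.818). Neither passed the threshold.

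**Figure D3:**
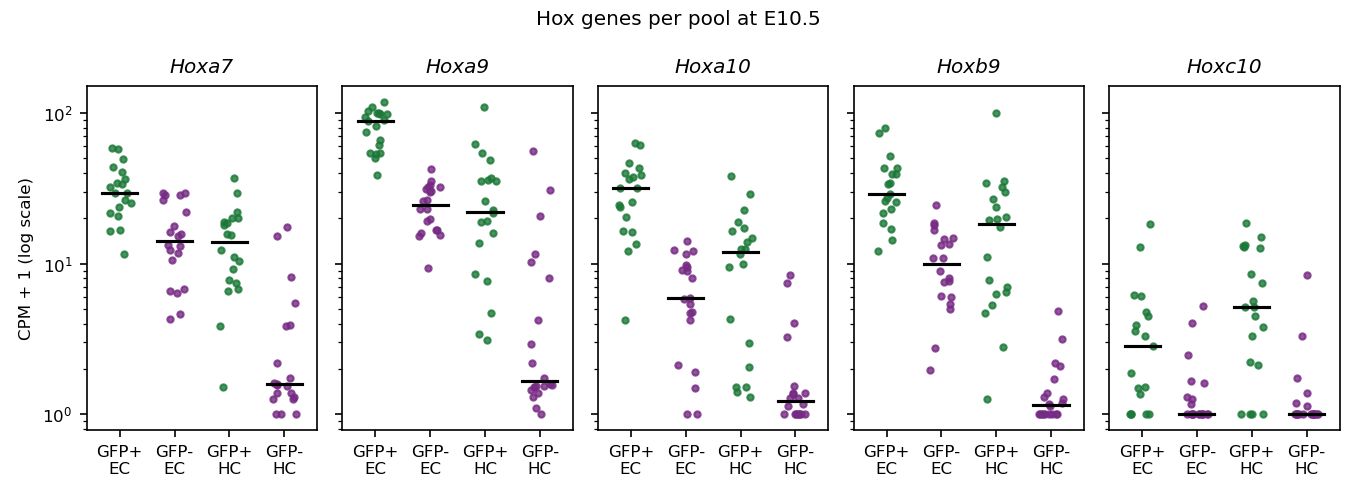
CPM + 1 (log scale) of the 5 Hox genes called in ECs, 1 point per pool, in the EC and HC populations at E10.5, with black lines at medians. In ECs the GFP+ medians lie above the GFP- medians for all 5 genes and the ranges overlap, and GFP- HCs lie near 0.

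Scaling on the ERCC spike-in RNAs moved the median log2 fold change of all genes by -0.70 in ECs. Hoxa9, Hoxa10 and Hoxb9 were still called higher with it, while Hoxa7 (0.22) and Hoxc10 (1.68) were not, and Hoxb5 became lower. Marker sums of other cell types differed along with the reporter. The mesenchymal sum was 25.9, 94.5 and 1579 CPM in GFP+ against 3.87, 15.6 and 72.2 in GFP- ECs, and the haematopoietic sum 214, 286 and 501 against 39.8, 92.5 and 134. Of the 8 mesenchymal markers, 7 could be tested, and 7 were higher in GFP+ ECs and 0 lower, against 19.5% and 16.5% of all genes. Medians reached 1 CPM for 7 of the 8 in GFP+ and for 2 in GFP- ECs. Col1a1, a defining mesenchymal marker, had medians of 1.40 and 0.56 CPM. Single genes of the neural lists were higher too, with Stmn2 at medians of 369 and 42.0 CPM and Isl1 at 110 and 1.23, while Th and Sox10 had medians of 0. Their part in the Hox result was not tested. Without the single pool of 1579, 5 Hox genes were higher and 0 lower. In pools of cells, more cells of a type and more RNA per cell cannot be told apart.

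The same comparison was made in HCs, where 24 of the 39 Hox genes had enough counts to be tested. In GFP+ HCs, 22 of them were higher and 0 lower, against 17.1% and 9.53% of all 16200 genes. The median log2 fold change was 3.23 over the 24 and 0.05 over all genes. Neither value is a measure of the whole set, since the filter largely fixes them: 23 of the 24 pass it in GFP+ pools taken alone and 3 in GFP- pools taken alone, so a gene that passed was nearly always one that GFP- HCs lack. The exceptions were Hoxa4 (log2 fold change 2.34 ± 0.76, edgeR adjusted p = 0.0127) and Hoxb4 (1.79 ± 0.64, edgeR adjusted p = 0.0243), which also had positive fitted values.

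The largest log2 fold change was that of Hoxb9, 5.45 ± 0.64 (edgeR adjusted p = 1.29e-08), with 0.269, 17.4 and 99.1 CPM in GFP+ and 0, 0.154 and 3.89 CPM in GFP- HCs. Of the 20 GFP- pools, 9 had no Hoxb9 count. Hoxb7 had 0, 3.73 and 39.8 CPM against 0, 0.0654 and 1.97 (4.80 ± 0.71, edgeR adjusted p = 9.6e-07). Hoxc9 had 0.527, 18.9 and 76.5 CPM against 0, 0.234 and 8.69 (4.53 ± 0.56, edgeR adjusted p = 3.04e-08). Hoxc8 had 1.05, 14.6 and 45.5 CPM against 0, 0 and 3.93 (4.40 ± 0.64, edgeR adjusted p = 5.55e-07). Of the 20 GFP+ pools, 17 (Hoxb9), 12 (Hoxb7), 15 (Hoxc9) and 18 (Hoxc8) lay above all GFP- pools, and the rest reached into the GFP- range.

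The Hoxa genes that differed in ECs had smaller fitted values than these 4. Hoxa9 had 2.11, 21.2 and 109 CPM in GFP+ and 0, 0.673 and 54.8 CPM in GFP- HCs, and 2 of 20 GFP+ pools lay above all GFP- pools (2.0 ± 0.60, edgeR adjusted p = 0.00761). Hoxa10 had 0.314, 11 and 37.4 CPM against 0, 0.231 and 7.39 (3.36 ± 0.68, edgeR adjusted p = 0.000105). Hoxa7 had 0.527, 13 and 36 CPM against 0, 0.582 and 16.6 (2.30 ± 0.55, edgeR adjusted p = 0.000793). For Hoxa10 and Hoxa7, 13 and 8 of the 20 did so. Hoxa9 lost its call without a filter on low counts (1.95).

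Posterior genes of the other clusters were near the floor in GFP- HCs. Hoxc10 had 0, 4.14 and 17.7 CPM in GFP+ and 0, 0 and 7.37 in GFP- pools (3.44 ± 0.78, edgeR adjusted p = 0.000487). Hoxd9 had 0, 1.85 and 17.2 against 0, 0 and 5.23 (3.45 ± 0.82, edgeR adjusted p = 0.000843). Hoxd10 had 0, 0.453 and 14.7 against 0, 0 and 3.68 (3.66 ± 0.90, edgeR adjusted p = 0.00122). At least 10 counts were seen in 10, 8 and 5 of the 20 GFP+ pools for Hoxc10, Hoxd9 and Hoxd10, and in 1 GFP- pool for each.

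Of the anterior genes, which pattern the hindbrain and neck, Hoxa2, Hoxa3, Hoxb2 and Hoxc4 were among those higher in GFP+ HCs. Hoxa2 had 0, 3.99 and 15.2 CPM in GFP+ and 0, 0 and 6.93 in GFP- pools (3.02 ± 0.76, edgeR adjusted p = 0.00148). Hoxa3 had 0, 1.41 and 10.3 against 0, 0 and 5.43 (2.30 ± 0.70, edgeR adjusted p = 0.00779). Both had a GFP- median of 0. Hoxb2 had 0, 2.17 and 8.15 CPM against 0, 0 and 0.788 (3.71 ± 0.59, edgeR adjusted p = 2.98e-06). Hoxc4 had 0, 4.13 and 22.1 against 0, 0.143 and 11.6 (2.32 ± 0.69, edgeR adjusted p = 0.00634). Hoxa3 and Hoxc4 lost their calls with ERCC scaling, under which 20 genes were higher.

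The genes of the middle of the clusters, which act in the trunk, followed. Hoxa5 had 0, 8.01 and 26.3 CPM against 0, 1.38 and 11 (1.94 ± 0.54, edgeR adjusted p = 0.00356), the highest GFP- median of the members. Hoxb5 had 0.375, 3.59 and 44.2 against 0, 0.21 and 4.71 (3.12 ± 0.67, edgeR adjusted p = 0.000272). Hoxc5 had 0, 7.56 and 27.8 against 0, 0.148 and 13.5 (2.53 ± 0.67, edgeR adjusted p = 0.00243). The 3 genes share the paralog number 5. Hoxb6 had 0, 4.89 and 20.2 CPM against 0, 0 and 2.71 (3.35 ± 0.67, edgeR adjusted p = 9.24e-05). Hoxc6 had 0, 5.36 and 20.7 against 0, 0.449 and 3.97 (2.99 ± 0.55, edgeR adjusted p = 3.12e-05). Of number 8, Hoxb8 had 0, 1.53 and 13.2 against 0, 0 and 1.80 (3.47 ± 0.68, edgeR adjusted p = 7.93e-05) and Hoxd8 had 0, 1.18 and 12.7 against 0, 0.0372 and 4.30 (2.85 ± 0.75, edgeR adjusted p = 0.00232). The ranges of all members overlapped between GFP+ and GFP- HCs.

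Mesenchymal markers differed between the HC populations along with the Hox genes. The sum of the 39 Hox genes was 19.5, 179 and 438 CPM in GFP+ and 0.989, 15.8 and 94.0 CPM in GFP- HCs, and 18 of the 20 GFP+ pools lay above all GFP- pools. The sum of the 8 mesenchymal markers was 17.9, 355 and 957 against 3.37, 42.5 and 175, with 19 GFP+ pools above all GFP- pools. The GFP+ pool with the lowest mesenchymal sum (17.9) also had the lowest Hox sum (19.5). All 8 mesenchymal markers had medians above 0 in both HC populations. Medians reached 1 CPM for 8 of them in GFP+ and for 5 in GFP- HCs. In GFP+ HCs, Col3a1 (109 CPM), Col1a1 (45.9) and Pdgfra (32) were among these markers. Their part in the Hox result was not tested.

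Several other marker lists were also higher in GFP+ HCs. The sympathetic sum was 5, 107 and 1986 CPM against 1.72, 9.87 and 27.9. The medians of the limb bud (51.7 against 0.57), nephric (35.2 against 2.49) and endothelial sums (198 against 65.5) lay in the same direction. Of the 8 nephric markers, 4 had a median of 0 in GFP+ HCs. Blood lists ran mostly the other way, against 17.1% higher and 9.53% lower of all genes. Of 8 haematopoietic markers, 2 were higher and 5 lower in GFP+ HCs. Of 8 macrophage markers 0 were higher and 2 lower, and of 8 erythroid markers 0 were higher and 1 lower. The 2 GFP+ pools with over 500 CPM of sympathetic markers (791 and 1986) had Hox sums of 390 and 438. With these 2 left out, 19 of 23 genes tested were higher, and Hoxa5, Hoxa9 and Hoxc4 no longer passed. Beside the MC pools of E11.5, a stage that differs, the median Hox sum of GFP+ HCs was 35.0% of that of GFP+ MCs without the 12 pools, and the median mesenchymal sum was 7.34%.

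HCs and ECs of E10.5 were then compared with both reporter fractions weighted equally. Of 25 Hox genes tested, 3 were higher in HCs and 15 lower, against 26.6% and 24.0% of all 17851 genes. The 3 were all Hoxc genes: Hoxc4 (2.24 ± 0.54, edgeR adjusted p = 2e-04), Hoxc5 (2.12 ± 0.57, edgeR adjusted p = 0.000942) and Hoxc8 (1.92 ± 0.48, edgeR adjusted p = 0.000352). In ECs the medians of Hoxc4 and Hoxc5 were 0 CPM in both fractions, and those of Hoxc8 were 0.768 in GFP+ and 0.129 in GFP- cells. The signal in HCs came from the GFP+ pools, with medians of 4.13, 7.56 and 14.6 CPM for Hoxc4, Hoxc5 and Hoxc8.

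The 15 that were lower in HCs were 6 Hoxa, 7 Hoxb and 2 Hoxd genes. Hoxd8 (-4.36 ± 0.36, edgeR adjusted p = 2.62e-18) and Hoxb7 (-4.35 ± 0.33, edgeR adjusted p = 2.77e-20) fell furthest. Hoxd8 had 7.08, 22.7 and 39.3 CPM in GFP+ ECs, 2.93, 17.6 and 40.6 in GFP- ECs, 0, 1.18 and 12.7 in GFP+ HCs and 0, 0.0372 and 4.30 in GFP- HCs. Both HC medians were far below both EC medians, though single HC pools reached the EC range. Smaller falls included those of Hoxd4, which fell by 2.78 ± 0.44 on the log2 scale, and of Hoxa9, which fell by 1.62 ± 0.31. Hoxc9 (-0.11 ± 0.34, edgeR adjusted p = 0.804) and Hoxc10 (0.40 ± 0.55) were among those not called. The same 3 and 15 genes were called with ERCC scaling, which moved the median of all genes by 0.39.

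Whether the reporter difference itself differed between HCs and ECs was tested as an interaction in the same fit. It was larger in HCs for 10 of 25 Hox genes and smaller for 0, against 14.1% and 8.60% of all genes. The 10 were Hoxb2, Hoxb5, Hoxb6, Hoxb7, Hoxb8, Hoxb9, Hoxc9, Hoxd8, Hoxd9 and Hoxd10, with differences of 2.76 to 5.59 on the log2 scale. No Hoxa gene was among them with TMM scaling. ERCC scaling, which moved the median of all genes by 0.64, gave 15, with 5 Hoxa genes among them. Hoxd9 lost its call without the 2 GFP+ HC pools high in sympathetic markers (2.84). For Hoxb7 the reporter difference was 0.19 ± 0.21 in ECs and 4.80 ± 0.71 in HCs, an interaction of 4.64 ± 0.64 (edgeR adjusted p = 1.11e-08). For Hoxa9 it was 1.71 in ECs and 2.0 in HCs, an interaction of 0.24 ± 0.60 (edgeR adjusted p = 0.8), which did not pass and does not show that they were alike. The filter and the marker sums named for HCs bear on these values too.

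**Figure D4:**
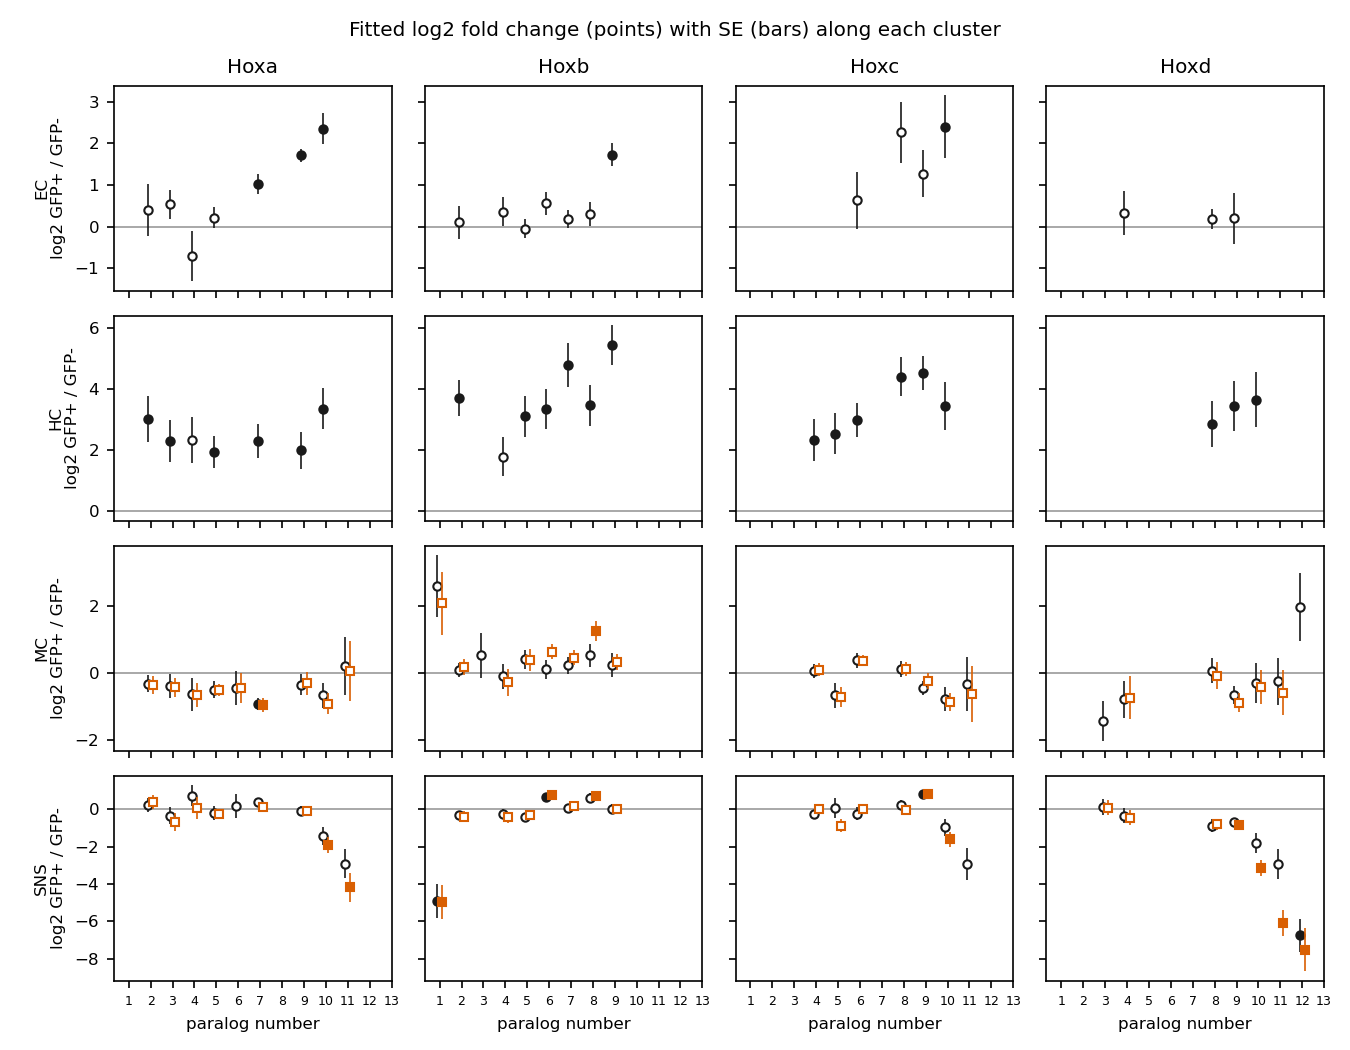
Fitted log2 fold change of GFP+ over GFP- cells (points) with SE (bars) by paralog number, clusters in columns and cell types in rows, for tested Hox genes except 1 that is not reported. Black circles use all passing pools, orange squares leave out the 12 pools, and filled symbols are called. In ECs the called genes have numbers 7 to 10, in HCs all genes drawn lie above 0, and in SNS cells the genes called lower are Hoxb1 and genes of numbers 9 to 12.

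In the libraries labelled MC, few Hox genes were called between GFP+ and GFP- pools. Of 33 tested, 0 were higher and 1 was lower in GFP+ pools, against 2.21% and 2.15% of all 16026 genes. Without the pools that went against their label, 1 of 30 was higher and 1 lower, against 5.52% and 4.89% of all genes. By edgeR, 6 of the 33 had an unadjusted p under 0.05 with all pools, and 10 of the 30 without the pools that went against their label. By DESeq2 with all pools, 0 were higher and 1 lower. The median log2 fold change was -0.25 over the 33 and -0.01 over all genes.

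Hoxa7 was the gene that fell, with 9.94, 32.1 and 54.7 CPM in GFP+ and 31.3, 52.8 and 101 CPM in GFP- pools. Of the 20 GFP+ pools, 10 lay below all GFP- pools. The log2 fold change was -0.91 ± 0.18 (edgeR adjusted p = 0.000797), and -0.94 ± 0.20 without the 12 pools (edgeR adjusted p = 0.000773). With both ERCC scaling and the 12 pools left out it was -0.78 and no longer called, in a fit where this scaling moved the median of all genes by 0.14. Hoxb8 passed only without the 12 pools, with 5.06, 12.1 and 24.3 CPM against 1.74, 3.93 and 12.6 (1.25 ± 0.29, edgeR adjusted p = 0.00182). Over all pools its log2 fold change was 0.52 ± 0.35 (edgeR adjusted p = 0.413).

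The posterior genes were expressed in MCs of both populations. Hoxa10 (again leaving out the 12 pools) had 5.35, 21.7 and 84.0 CPM in GFP+ and 36.5, 51.1 and 90.4 in GFP- MCs. Hoxc10 had 4.93, 26.6 and 66.8 against 30.5, 47.1 and 90.9, and Hoxd10 had 0, 22.2 and 98.7 against 12.1, 36.5 and 68.9. Of the 17 GFP+ pools, 12 (Hoxa10), 9 (Hoxc10) and 6 (Hoxd10) lay below all GFP- pools, and 2 lay above them for Hoxd10. All 3 medians were lower in GFP+ MCs, but the ranges overlapped and the tests did not pass (edgeR adjusted p = 0.0339 for Hoxa10, 0.0267 for Hoxc10 and 0.651 for Hoxd10, and 0.28, 0.174 and 0.826 over all passing pools). Hoxa9 (-0.31 ± 0.34, edgeR adjusted p = 0.603) and Hoxb9 (0.32 ± 0.24, edgeR adjusted p = 0.415) did not pass either. Further back, Hoxa11 had 0, 0 and 19.3 against 0, 2.08 and 12, Hoxd11 had 0, 2.17 and 13.3 against 0, 4.67 and 18.7, and Hoxd12 had a median of 0 in both. Marker sums differed along with these medians: the mesenchymal sum had medians of 4828 in GFP+ and 3119 in GFP- MCs, and the nephric sum 15.6 and 64.7. Their part in the Hox values was not tested.

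In the libraries labelled SNS without the 12 pools, most Hox genes lower in GFP+ cells were posterior ones. Over all passing pools, 2 of 32 Hox genes were higher in GFP+ cells and 2 lower, against 2.01% and 1.86% of all 16143 genes. Without the 12 pools, 3 of 30 were higher and 8 lower, against 4.94% and 5.48% of all genes. The higher ones were Hoxb6 and Hoxc9 in both cases, joined by Hoxb8. The lower ones were Hoxb1 and Hoxd12 in both cases, joined by Hoxa10, Hoxa11, Hoxc10, Hoxd9, Hoxd10 and Hoxd11. The filter on counts bears on the lower ones. Of the 30, 25 pass it in GFP+ pools taken alone and 29 in GFP- pools taken alone (26 and 31 of the 32 over all passing pools). Without the 12 pools, Hoxb1, Hoxd11 and Hoxd12 passed it through GFP- pools only, so the filter largely fixed their direction. Median log2 fold changes were -0.25 and -0.27 over the genes tested, and -0.004 and -0.01 over all genes. ERCC scaling moved the median of all genes by 0.35, and by 0.44 without the 12 pools.

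Hoxd12, a posterior gene best known from the limb bud, had 0 counts in all 15 GFP+ SNS pools without the 12, and 0, 4.81 and 10.3 CPM in the 16 GFP- pools. In the GFP- pools, 12 had counts and 4 had none. Against a floor of 3 counts over the GFP+ group, this is at least 116-fold lower in GFP+ cells. Over all passing pools the GFP+ group held 1 count, a ratio of 363 with a 95% counting interval of 64.8 to 14380. Both tests passed (edgeR adjusted p = 2.21e-06 over all pools and 0.000101 without the 12).

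Hoxd11, its neighbour, was also low in GFP+ cells. It had, again leaving out the 12 pools, 3 counts in all 15 GFP+ pools together and 0, 3.06 and 16 CPM in GFP- pools, a 109-fold difference with a 95% counting interval of 37.0 to 531 (edgeR adjusted p = 4.01e-08). Over all pools the test did not pass (edgeR adjusted p = 0.0143). Hoxd10 had 0, 0.851 and 3.52 CPM against 1.17, 10.8 and 23.1 without the 12 pools (-3.15 ± 0.45, edgeR adjusted p = 3.19e-06). Of the 15 GFP+ pools, 9 lay below all GFP- pools. Hoxd9 had 1.60, 12.8 and 20.3 CPM against 8.36, 22.3 and 30.8 (-0.83 ± 0.23, edgeR adjusted p = 0.00872). Over all passing pools neither was called (edgeR adjusted p = 0.0348 for Hoxd10 and 0.0507 for Hoxd9). The counts do not order Hoxd11 and Hoxd12.

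The Hoxa and Hoxc clusters showed posterior differences of the same sign without the 12 pools. Hoxa9 did not pass the test (-0.09 ± 0.26, edgeR adjusted p = 0.863). Hoxa10 had 0.426, 7.43 and 21.1 CPM in GFP+ and 8.59, 26.5 and 61.3 CPM in GFP- cells (-1.93 ± 0.42, edgeR adjusted p = 0.00111). Hoxa11 had 0, 0 and 1.84 against 0, 3.38 and 16.6 (-4.18 ± 0.77, edgeR adjusted p = 0.000144). Of its exon bases, 35.0% lie opposite Hoxa11os. Reads of this stretch may have been left out as claimed by both genes, or may belong in part to Hoxa11os. Hoxc10 had 0.213, 4.16 and 17.7 CPM against 6.84, 17.7 and 38.7 (-1.62 ± 0.43, edgeR adjusted p = 0.00617). With all passing pools none of these 3 genes passed (edgeR adjusted p = 0.0493 for Hoxa10, 0.0108 for Hoxa11 and 0.197 for Hoxc10). With ERCC scaling and without the 12 pools, Hoxc10 and Hoxd9 were no longer called and the other 6 lower genes were.

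Hoxb1, the most anterior Hoxb gene, was also lower in GFP+ SNS cells. It had 0, 0 and 1.22 CPM in GFP+ and 0, 1.79 and 16.4 CPM in GFP- SNS pools over all passing pools (-4.92 ± 0.91, edgeR adjusted p = 0.000422). With the 12 pools left out the fitted value was -4.96 ± 0.93 (edgeR adjusted p = 0.00018). Of the 16 remaining GFP- pools, 9 had at least 10 counts and 5 had none, while no GFP+ pool had 10. Its promoter window with the Pbx-Hox letters is printed above.

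The genes that rose in GFP+ SNS cells were Hoxb6 and Hoxc9, with Hoxb8 added without the 12 pools. Hoxc9 shares its paralog number with Hoxd9, which fell without the 12 pools. Hoxc9 had 40.0, 57.1 and 104 CPM in GFP+ and 24.9, 33.6 and 64.4 CPM in GFP- pools over all passing pools (0.81 ± 0.13, edgeR adjusted p = 7.82e-05), and the fitted value was 0.81 ± 0.15 without the 12. Hoxb6 had 16.5, 45.8 and 63.6 CPM against 16, 27.1 and 39.8 (0.63 ± 0.15, edgeR adjusted p = 0.00634). Of the 18 GFP+ pools, 11 (Hoxb6) and 7 (Hoxc9) lay above all GFP- pools. Hoxb8 passed without the 12 pools, with 13.1, 23.8 and 35.2 CPM against 4.47, 14.9 and 26.5 (0.69 ± 0.17, edgeR adjusted p = 0.00425). Hoxb9, the gene with the highest level per kb in these cells, had 68.5, 103 and 146 CPM against 73.6, 100 and 127 and did not pass (0.03 ± 0.10, edgeR adjusted p = 0.876).

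**Figure D5:**
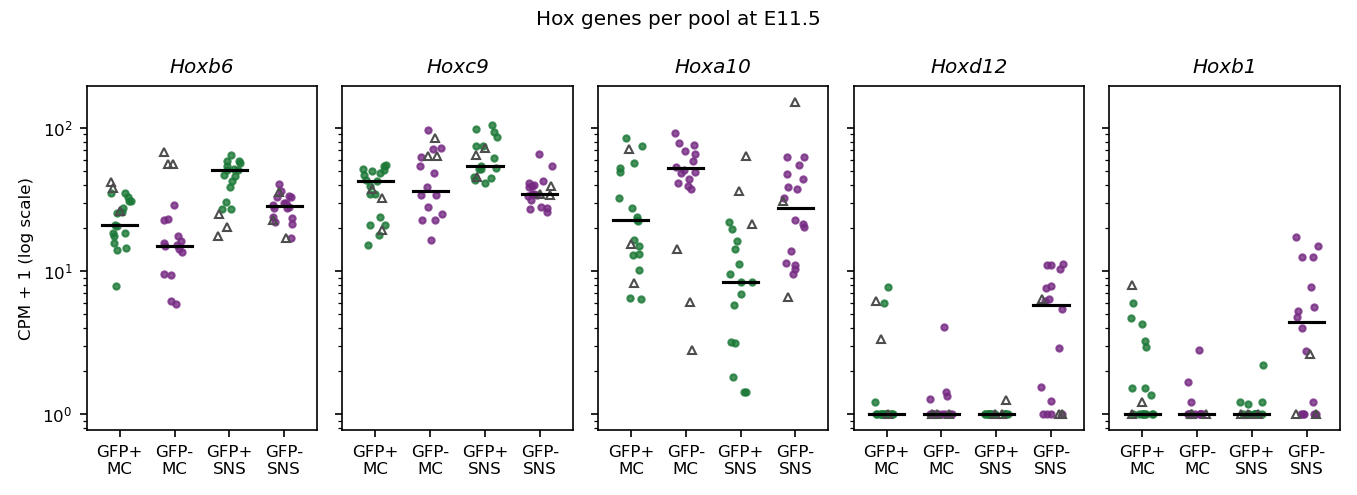
CPM + 1 (log scale) of 5 Hox genes, 1 point per pool, in populations labelled MC and SNS at E11.5. Open triangles are the 12 pools that went against their label, and black lines are medians without them. In SNS cells Hoxd12 and Hoxb1 have counts mainly in GFP- pools, and Hoxb6 and Hoxc9 have higher medians in GFP+ pools.

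Other marker lists differed between the SNS populations too. In the 15 GFP+ and 16 GFP- pools, the sum of 8 nephric duct and kidney markers was 0.372, 1.77 and 12.9 CPM in GFP+ and 0.937, 90.4 and 231 CPM in GFP- cells. Wt1, a gene of the kidney and of the coelomic lining, made up much of it (medians over all passing pools 0.686 and 66.8 CPM), and Lhx1, Cdh1 and Cdh16 had medians of 0. Over all passing pools, 4 of the 8 had medians of 1 CPM or more in GFP- cells and 0 in GFP+ cells. Without the 12 pools, 4 of 5 tested were lower in GFP+ cells and 0 higher, against 5.48% and 4.94% of all genes. The mesenchymal sum was 112, 220 and 339 against 380, 518 and 902, with no overlap. The sums of the limb bud list and of the spinal cord and sensory neuron list ran the other way, with medians of 41.1 against 16.8 and 517 against 185. The latter list also holds genes of neurons at large, so its sum does not single out another cell type. Over all passing pools, 4 of its 8 genes had medians of 1 CPM or more in GFP+ cells and 3 in GFP- cells. The GFP- pool with the lowest nephric sum (0.937) had 0 CPM of Hoxa11 and 0.234 of Hoxd12. The part of these markers in the posterior Hox difference was not tested.

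SNS and MC libraries were then compared with both fractions weighted equally. Over all passing pools, 3 of 33 Hox genes were higher in SNS libraries and 9 lower, against 11.4% and 12% of all 17733 genes. Leaving out the 12 pools gave 6 higher and 15 lower, against 20.5% and 19.7% of all genes. The 6 were Hoxb6, Hoxb7, Hoxb8, Hoxb9, Hoxd3 and Hoxd8, and Hoxb9 rose by 2.04 ± 0.13 (edgeR adjusted p = 3.12e-21). It had medians of 103 and 100 CPM in GFP+ and GFP- SNS cells and 26.0 and 21.4 in MCs, and no SNS pool lay below the highest MC pool (46.4).

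The 15 lower genes were 7 of Hoxa, 6 of Hoxc and 2 of Hoxd, and no Hoxb gene was among them. Hoxc5 fell by 2.69 ± 0.23 (edgeR adjusted p = 6.6e-16), with medians of 3.67 and 6.47 CPM in SNS cells and 27.0 and 40.9 in MCs. Hoxa5 fell by 2.19 ± 0.17 (edgeR adjusted p = 4.9e-18), with medians of 43.5 and 68.9 CPM in MCs and 9.69 and 13.7 in SNS cells. With all passing pools both were called with smaller falls (-1.21 ± 0.34 for Hoxc5 and -1.36 ± 0.24 for Hoxa5, edgeR adjusted p = 0.00386 and 5.48e-06). Hoxc6 (-1.60 ± 0.13, edgeR adjusted p = 4.21e-17) and Hoxc8 (-1.25 ± 0.14, edgeR adjusted p = 1.38e-11) lay in the same direction. ERCC scaling moved the median of all genes by 0.48 over all pools and by 0.70 without the 12, and the split became 8 higher and 4 lower over all pools and 10 and 10 without the 12. Hoxa7, called lower with TMM scaling, had a value of 0.0415 with ERCC scaling without the 12 pools, which lies below the shift of 0.70 of all genes.

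The reporter difference itself differed between SNS and MC libraries for 4 of 33 Hox genes, 2 larger and 2 smaller in SNS, against 5.17% and 4.49% of all genes. Those larger in SNS were Hoxa7 (1.27 ± 0.28, edgeR adjusted p = 0.000667) and Hoxc9 (1.24 ± 0.25, edgeR adjusted p = 0.00021). Those smaller were Hoxb1 (edgeR adjusted p = 1.48e-05) and Hoxd12 (edgeR adjusted p = 2.25e-06). Once the 12 pools were left out, Hoxa11, Hoxd10 and Hoxd11 joined them, which made 2 larger and 5 smaller, against 4.73% and 5.64% of all genes. In that fit the values were 1.07 ± 0.29 for Hoxa7 and 1.06 ± 0.28 for Hoxc9 (edgeR adjusted p = 0.00453 and 0.0046).

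Hox proteins bind DNA with cofactors of the Pbx and Meis families, and 11 such genes and regulators were counted. In GFP+ ECs, 6 were higher and 1 lower, against 19.5% and 16.5% of all genes. Meis1, a partner of Hoxa9, rose by 2.87 ± 0.25 on the log2 scale (edgeR adjusted p = 5.18e-13), Meis2 rose by 2.25 ± 0.21 (edgeR adjusted p = 3.96e-12), and Gmnn, a replication licensing inhibitor that also binds Hox proteins, fell by 1.07 ± 0.15 (edgeR adjusted p = 6.92e-08). GFP+ HCs again had 6 higher, led by Meis2 (3.35 ± 0.39, edgeR adjusted p = 7.94e-09), and 1 lower, against 17.1% and 9.53% of all genes. In SNS against MC libraries, 0 were higher and 4 lower over all passing pools, against 11.4% and 12% of all genes. Without the 12 pools 1 was higher and 6 lower, against 20.5% and 19.7%, with Meis2 (-3.29 ± 0.21) and Meis1 (-2.68 ± 0.11) furthest down (edgeR adjusted p = 9.73e-22 and 7.67e-32).

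Regulators that keep Hox clusters open or closed were called in both directions, in shares to be read against the 19.5% higher and 16.5% lower of all genes in ECs and 17.1% and 9.53% in HCs. Of 17 Trithorax-side genes, which hold Hox genes active, 5 were higher and 1 lower in GFP+ ECs, led by Mllt3 (3.28 ± 0.19, edgeR adjusted p = 2.13e-18), a partner of Dot1l. In GFP+ HCs 2 were higher and 2 lower, with Mllt3 up by 2.62 ± 0.36 (edgeR adjusted p = 2.19e-07). Of 24 Polycomb genes, which hold Hox genes silent, 7 were higher and 3 lower in GFP+ ECs and 4 higher and 2 lower in GFP+ HCs. In HCs these shares lie near those of all genes. Eed, a core subunit of the complex that methylates histone H3, was among the lower genes in both (-0.75 ± 0.16 in ECs, edgeR adjusted p = 0.000144, and -0.55 ± 0.12 in HCs, edgeR adjusted p = 0.00031). In GFP+ against GFP- SNS libraries, 0 Trithorax-side genes were called by edgeR with or without the 12 pools (1 had an unadjusted p under 0.05 in each case, and DESeq2 called 0 and 1). For Polycomb genes, 0 were higher and 1 lower over all passing pools, and 1 was higher and 2 lower without the 12, against 4.94% and 5.48% of all genes.

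Retinoic acid and other posterior signals set Hox genes in the early embryo, and 19 of their genes were counted. In GFP+ ECs 4 of 13 tested were higher, among them Cyp26a1 (3.84 ± 0.68, edgeR adjusted p = 9.89e-06) and Cyp26b1 (1.37 ± 0.24, edgeR adjusted p = 5.52e-06), enzymes that break retinoic acid down, and 1 was lower, against 19.5% and 16.5% of all genes. In GFP+ HCs 6 of 11 were higher, against 17.1% of all genes, led by the receptor gene Rarb (3.89 ± 0.42, edgeR adjusted p = 2.38e-09) and the synthesis gene Aldh1a2 (3.43 ± 0.67, edgeR adjusted p = 7.52e-05). In GFP+ SNS libraries 0 of 13 were called by edgeR over all passing pools (4 had an unadjusted p under 0.05, and DESeq2 called 1 lower). Without the 12 pools 4 of 13 were lower, against 5.48% of all genes, and Aldh1a2 fell by 5.72 ± 0.46 (edgeR adjusted p = 5.9e-11). None of the 8 ParaHox and Hox-linked homeobox genes, such as Cdx2 and Evx1, had enough counts to be tested in any comparison.

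The clusters also hold non-coding genes, of which 15 were listed and 3 to 6 could be tested. Hotairm1, a long non-coding RNA of the Hoxa cluster, was higher in GFP+ ECs (1.14 ± 0.26, edgeR adjusted p = 0.000376), and Hoxd3os1 was higher in GFP+ HCs (2.25 ± 0.66, edgeR adjusted p = 0.00632). In GFP+ SNS libraries 0 of 6 were called by edgeR over all passing pools (2 had an unadjusted p under 0.05, and DESeq2 called 1 lower). Leaving out the 12 pools, Hoxa11os (-6.65 ± 0.88, edgeR adjusted p = 9.99e-07) and Hoxb5os (-3.01 ± 0.55, edgeR adjusted p = 0.000127) were lower. Hoxa11os lies opposite Hoxa11, and the counts cannot tell the 2 apart where they overlap.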

How the data were processed

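RNA of 160 pools of 20 sorted cells was sequenced with Smart-seq2, and the authors deposited raw counts per gene for every pool, neither normalized nor filtered. The paper names STAR and Ensembl 81, while the submitters' processing notes name GSNAP, HTSeq 0.5.3p3 and mm10; the strand setting is not given in the sources used here. Reads that no gene or several genes could claim were left out of library sizes (medians 11.6% and 16.3% of reads per pool), and a median of 23.0% of reads was not aligned. Pools were assigned by column name, none was identical to another, and they were kept with over 500000 counts, over 20% of reads on genes, under 20% mitochondrial and under 20% ERCC counts.

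Genes reaching 10 counts in 5 or more pools of a fit were tested with edgeR 4.0.16 (R 4.3.3; TMM, robust quasi-likelihood, Benjamini-Hochberg over all genes) within each cell type, or over the 4 populations of a stage for cell type and interaction contrasts. Log2 fold changes are GFP+ over GFP-, HC over EC or SNS over MC, and SEs were taken from the F statistics. Alternatives were median-ratio and ERCC size factors, DESeq2 1.42.0, other filters and thresholds, all pools and, chosen after seeing the data, fits without pools that went against their label or were high in markers of another cell type. Positions come from GENCODE M21 (GRCm38), and promoter windows from RefSeq, which matched 22 of the 39 genes. Python 3.11.15, pandas 2.3.3, numpy 2.4.6 and matplotlib 3.10.9 made tables and figures. Of these steps, the edgeR fit was tested on simulated counts, modelled on the EC comparison only. Hox genes called in a comparison, those of paralog groups 9 to 13 and those called in more than 1 cell type are named, and from other lists up to 3 genes per direction. Values of 1 Hox gene and of a few genes of other lists are not reported here, though counts include them. The members and lists were chosen with earlier results of these data known. Reads of amplified cDNA are not independent molecules, so floors and counting intervals cover counting error only.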

Additional observations from a re-analysis of the deposited data

Results flagged for a closer look

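The test of the difference between reporter effects picked out 14 values. In HCs against ECs, the log2 effect of the reporter was larger in HCs by 3.55 for Hoxb2, 3.16 for Hoxb5, 2.78 for Hoxb6, 4.64 for Hoxb7, 3.12 for Hoxb8, 3.74 for Hoxb9, 3.21 for Hoxc9, 2.76 for Hoxd8, 3.24 for Hoxd9 and 5.59 for Hoxd10. All 10 are positive, and in GFP- HCs these genes had medians of at most 0.234 CPM. In SNS against MC libraries over all passing pools, the effect was larger in SNS by 1.27 for Hoxa7 and 1.24 for Hoxc9. It was lower by a fitted -7.51 for Hoxb1 and -8.71 for Hoxd12, genes whose GFP+ SNS pools were at or near 0, so these sizes depend on the model's handling of zeros and are no bounds.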

How the results depend on the processing

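No paired analysis was possible because the column names carry no replicate numbers. Of 76 called Hox values, 63 were called under every alternative that tested them and 13 lost their call in at least 1. With ERCC size factors, 3 Hox genes were higher and 1 lower in GFP+ ECs, 5 were lower in GFP+ SNS, and 8 were higher and 4 lower in SNS against MC. With at least 10 counts in at least 20 pools, 6 of the 6 Hox genes left in HCs were higher, and 0 were lower in GFP+ SNS and 0 in the SNS and MC interaction, since fewer genes were tested. DESeq2 gave 4 lower in GFP+ SNS. An adjusted p under 0.05 gave 7 lower in GFP+ SNS, 5 higher and 14 lower in SNS against MC, and 16 in the HC and EC interaction. Without the 12 pools against their label, edgeR gave 1 higher in GFP+ MC, 8 lower in GFP+ SNS, 6 higher and 15 lower in SNS against MC, and 5 lower in the SNS and MC interaction. DESeq2 without them gave the same counts of 1, 8, 6, 15 and 5. ERCC size factors without them gave 1 higher and 0 lower in GFP+ MC, 4 higher and 6 lower in GFP+ SNS, 10 higher in SNS against MC, and a reversed Hoxa7 there (0.0415). Detected genes rose to 22 in GFP+ EC and 2 in GFP- HC with 3 counts in place of 10, and to 27, 26, 35, 22 and 35 in GFP+ EC, GFP- EC, GFP+ HC, GFP- HC and GFP+ MC when 1 pool was enough. Per kb of the longest transcript, 3 of the 5 highest genes of GFP+ MC stayed. Where no cause is named, the cause was not tested. Genes under about 10 counts per pool, most paralogs of number 11 to 13 among them, could not be compared at this depth.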
